A study of Mus musculus with 12 samples.

Results

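The early growth response (EGR) factors Egr1, Egr2, Egr3 and Egr4, together with Arc, Npas4 and Srf, are genes that excitable cells switch on, or use to switch others on, within minutes to hours of stimulation. They were chosen by symbol: every probe set that the array annotation pairs with these 7 symbols was taken, and a gene with several was represented by the brightest, judged on its average across arrays. All 7 genes were found among 19505 measured genes, through 9 of 19572 named probe sets, 3 of which belong to Egr3. The adrenal medulla was dissected from male C57Bl6 mice after 3 h without food and 90 min after an intraperitoneal injection, 1 Affymetrix array per animal. The groups were germ-free mice given insulin (2 IU/kg, human insulin; animals 10 to 12), germ-free mice given saline (animals 7 to 9), normally colonized mice given insulin (animals 4 to 6) and normally colonized mice given saline (animals 1 to 3), with n = 3 each. No allele or transgene was involved, and the ages of the mice are not given in the sources used here.

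EGR factors are zinc finger proteins that bind GC-rich sites. They are immediate early genes: their transcription starts without new protein synthesis when calcium entry, cyclic AMP or ERK signalling activates factors already present, chiefly SRF with its ternary complex partners (such as Elk1) at CArG boxes and CREB at cyclic AMP response elements (CREs). In the adrenal medulla that stimulus comes from the splanchnic nerve, which releases acetylcholine and PACAP onto chromaffin cells, and in rat chromaffin and PC12 cells EGR1 is known to bind the promoters of Th and Pnmt, enzymes of catecholamine synthesis.

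Promoter sequences from RefSeq (assembly GRCm38.p6) are printed for only 4 of the 7 genes, Egr2, Egr4, Npas4 and Srf. They are shown for matches to the kinds of element named above, and none of these 4 genes had a called change in the main fit. Each window covers 250 bases before to 50 bases after an annotated start site, 5′ to 3′ on the gene's strand. Capitals mark matches, on either strand, to the CRE core TGACG, the EGR site GCGNGGGCG and the CArG box.
Egr2 (chr10:67537619-67537918, plus strand): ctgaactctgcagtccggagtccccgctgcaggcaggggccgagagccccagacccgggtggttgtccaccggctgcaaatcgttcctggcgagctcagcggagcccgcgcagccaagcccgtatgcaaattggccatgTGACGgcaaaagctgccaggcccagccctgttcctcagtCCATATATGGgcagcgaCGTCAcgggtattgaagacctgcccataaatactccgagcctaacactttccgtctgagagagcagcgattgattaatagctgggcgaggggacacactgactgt
Npas4 (chr19:4989922-4990221, minus strand): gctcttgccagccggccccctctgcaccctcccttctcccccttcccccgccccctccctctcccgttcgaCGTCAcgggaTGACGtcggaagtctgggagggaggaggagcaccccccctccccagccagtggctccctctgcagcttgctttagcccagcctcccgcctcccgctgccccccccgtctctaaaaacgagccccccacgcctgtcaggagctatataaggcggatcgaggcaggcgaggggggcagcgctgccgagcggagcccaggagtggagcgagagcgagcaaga
Egr4 (chr6:85513540-85513839, minus strand): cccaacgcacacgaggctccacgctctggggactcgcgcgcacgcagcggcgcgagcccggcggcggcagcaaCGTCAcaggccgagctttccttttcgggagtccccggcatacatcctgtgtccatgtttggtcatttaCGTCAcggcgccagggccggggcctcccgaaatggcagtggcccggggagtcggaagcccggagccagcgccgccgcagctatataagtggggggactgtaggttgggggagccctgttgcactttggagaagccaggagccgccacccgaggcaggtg
Srf (chr17:46556113-46556412, minus strand): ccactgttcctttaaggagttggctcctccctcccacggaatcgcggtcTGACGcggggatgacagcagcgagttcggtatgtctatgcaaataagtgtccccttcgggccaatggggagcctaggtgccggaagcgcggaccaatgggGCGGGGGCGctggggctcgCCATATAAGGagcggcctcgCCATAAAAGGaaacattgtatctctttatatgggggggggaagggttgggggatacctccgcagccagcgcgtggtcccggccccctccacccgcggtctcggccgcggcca
The Egr2 window held 1 CArG box, CCATATATGG, whose first base is at position -72 from the start site, and 2 CRE cores with first bases at -111 and -55. Egr2 has 5 such windows in the table, and the one with the most matches, first by position among equals, is printed. Npas4 held 2 CRE cores and Egr4 also 2, with no CArG box and no EGR site in either window. Srf held 2 CArG boxes, CCATATAAGG and CCATAAAAGG, 1 CRE core and 1 EGR site (GCGGGGGCG). Of 32851 windows of this length in the table, 20.8% held the CRE core, 1.63% a CArG box and 5.55% the EGR site. The palindromic CRE TGACGTCA, which contains the core, was found in 1.79% of them and in none of the 4 printed. The Egr2 window was picked for its matches, so shares by gene, over all windows of each, apply to it. Of 27025 genes these were 23% for the CRE core, 1.81% for a CArG box and 6.27% for the EGR site. A match describes letters in this window and shows no binding. How the matches relate to the levels was not tested.

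Levels are log2 values made by the authors with RMA, which corrects background, quantile normalizes and summarises the probes of a probe set. Probe sets bind with different strength, so levels are compared between arrays and not between genes. Rows whose names mark them as negative controls (5222 rows) show how bright a probe set can be without a matching transcript. Egr1 and Srf lay above the 95th percentile of these rows on 12 of 12 arrays, Egr2 and Egr3 on 4 of 12, and Egr4, Arc and Npas4 on 0 of 12. For Egr2 and Egr3 these were the 3 colonized insulin arrays and 1 colonized saline array, so on all 6 germ-free arrays both lay within the range of the negative controls. Npas4 lay below the mean of the negative controls on every array, so its changes are differences between dim values. The negative controls themselves differed by colonization. Their mean per array was 5.46 to 5.67 in germ-free insulin and 5.50 to 5.60 in germ-free saline arrays, against 4.96 to 4.98 in colonized insulin and 4.92 to 5.04 in colonized saline arrays. Insulin moved this mean by 0.0055 in germ-free and 0.011 in colonized mice, so the shift in this mean lay between the colonization states.

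The pieces of tissue held the labelled chromaffin cells and other cells. All 12 measured chromaffin markers (of 14 listed) had a mean above 7.71, the 95th percentile of the negative control rows' means. Their mean per array was 9.71 to 10.22 in germ-free insulin, 10.55 to 10.69 in germ-free saline, 10.74 to 11.26 in colonized insulin and 10.61 to 11.09 in colonized saline arrays. The 10 adrenal cortex markers, all above that level, averaged 12.68 to 12.72, 12.72 to 12.74, 12.59 to 12.65 and 12.24 to 12.60 in the same order. The mean of 9 measured adipocyte markers was 10.08 to 10.48 in germ-free insulin, 8.60 to 9.38 in germ-free saline, 5.85 to 8.11 in colonized insulin and 6.14 to 10.17 in colonized saline arrays. Markers of other organs also stood apart by group. The mean of 6 intestinal epithelium markers was 7.42 to 9.36 in germ-free saline arrays and 4.73 to 5.08 in the other 3 groups, and that of 5 pituitary markers was 6.98 to 8.14 in germ-free insulin arrays and 4.82 to 5.71 in the others. The mean of 6 hepatocyte markers was 7.33 to 9.24 in germ-free insulin, 9.04 to 10.64 in germ-free saline, 6.43 to 6.55 in colonized insulin and 6.17 to 11.33 in colonized saline arrays. The part of these cells in the values of the 7 genes was not tested, beyond fits with the mean of the cortex, adipocyte or chromaffin markers as a covariate. Arrays of colonized saline mice correlated with each other at r = 0.954 to 0.988, against 0.987 to 0.993 in the other 3 groups. In bulk tissue, fewer cells of a type and less RNA per cell cannot be told apart. Nothing in the labels says whether animals shared a cage or a day, and no batch is given.

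**Figure D1:**
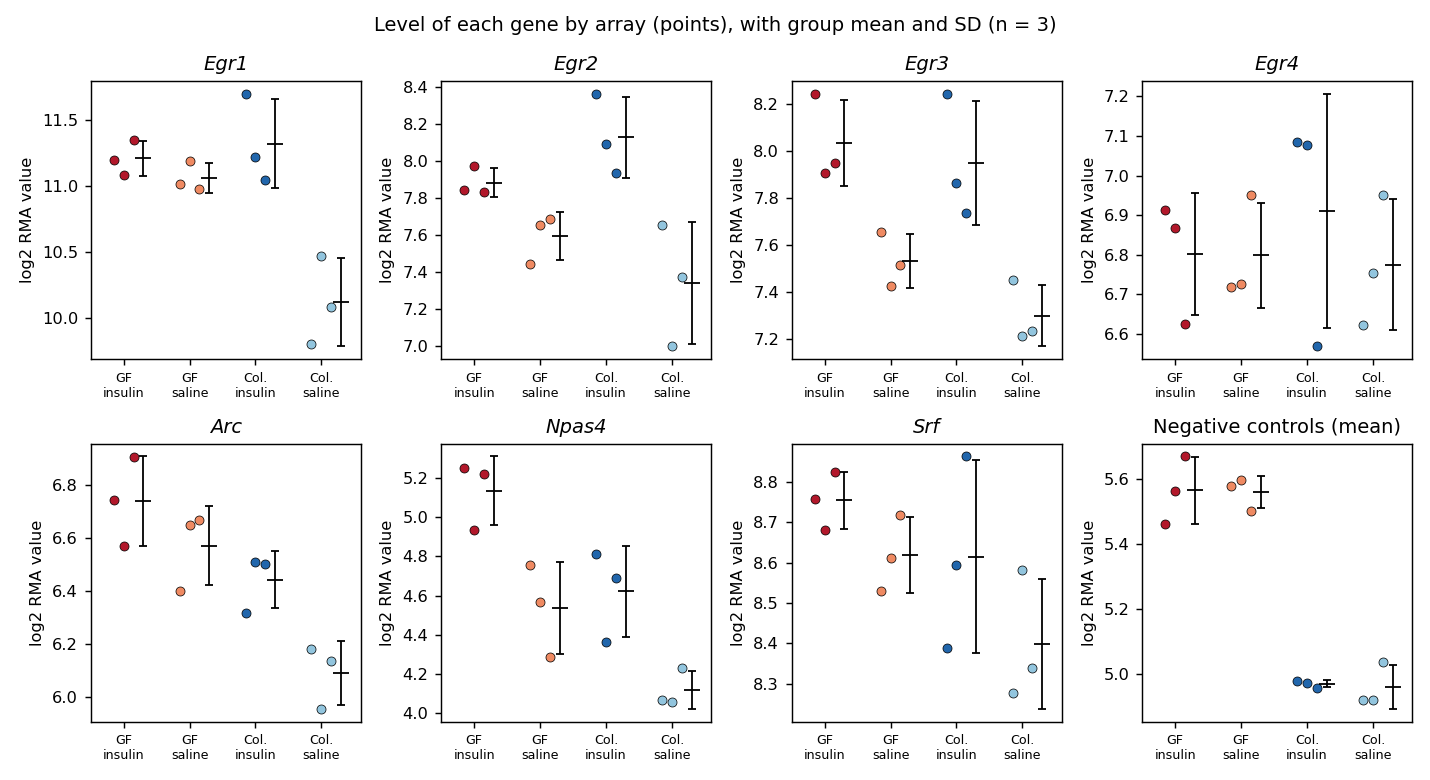
Log2 RMA value of each gene on each array (points, vertical axis) in germ-free (GF) and colonized (Col.) mice given insulin or saline, with group mean and SD (n = 3), and the mean of the negative control rows drawn the same way. Egr1 is low in the 3 colonized saline arrays (9.80 to 10.47) and between 10.98 and 11.70 on the other 9, while the negative controls separate the germ-free from the colonized arrays.

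Egr1, the EGR factor most studied in chromaffin cells, was low in colonized saline mice and high in the other 3 groups. Its level was 11.20, 11.08 and 11.34 in germ-free insulin mice (animals 10, 11 and 12) and 11.01, 11.19 and 10.98 in germ-free saline mice (animals 7, 8 and 9). In colonized mice it was 11.70, 11.22 and 11.04 after insulin (animals 4, 5 and 6) and 9.80, 10.47 and 10.08 after saline (animals 1, 2 and 3). The colonized saline arrays lay apart from all others, and the other 3 groups overlapped each other. By group mean the order was colonized insulin (11.32 ± 0.34, SD, n = 3), germ-free insulin (11.21 ± 0.13), germ-free saline (11.06 ± 0.11) and colonized saline (10.12 ± 0.33).

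In colonized mice insulin raised Egr1 by 1.20 ± 0.19 on the log2 scale (SE), a 2.30-fold higher level (limma, Benjamini-Hochberg adjusted p = 0.0429 over all named probe sets). It was the only one of the 7 genes called, at an adjusted p under 0.05, where 0.108% of all genes were called higher. This call depended on the fit. It was lost with all rows of the table adjusted together (adjusted p = 0.0506), with the compared groups alone (0.570), and with the mean of the adrenal cortex (0.0766), adipocyte (0.0892) or chromaffin markers (0.0702) as covariate, while the change stayed between 1.20 and 1.44. Leaving out colonized saline animal 1 or 3, colonized insulin animal 4 or 5, germ-free saline animal 7, 8 or 9, or germ-free insulin animal 10, 11 or 12 also ended it (adjusted p from 0.0539 to 0.150, changes from 1.01 to 1.25), and it was kept without colonized saline animal 2 or colonized insulin animal 6.

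In germ-free mice the change of Egr1 was 0.15 ± 0.19 (95% interval -0.26 to 0.55, limma adjusted p = 0.948), and its insulin and saline arrays overlapped. The insulin effect in germ-free mice minus that in colonized mice was -1.06 ± 0.26 for Egr1, with an unadjusted 95% interval of -1.63 to -0.48. Over all probe sets this difference was not called (adjusted p = 0.212). Weighting the arrays by their estimated quality, it was -1.26 and called (limma adjusted p = 0.0266), and without single arrays it ran from -1.23 to -0.87, called in 0 of 12 fits.

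The colonization states differed in Egr1 after saline. Germ-free saline mice had a level 0.94 ± 0.19 higher than colonized saline mice on the log2 scale, or 1.92-fold (limma adjusted p = 0.0136). After insulin the germ-free minus colonized difference was -0.11 ± 0.19 (95% interval -0.52 to 0.29, adjusted p = 0.790). The saline call was lost without germ-free saline animal 8 (0.88, adjusted p = 0.0569), with the compared groups alone (adjusted p = 0.0672) and with the adrenal cortex covariate (1.34, adjusted p = 0.0531). Both changes of Egr1 rest on the same 3 colonized saline arrays, so the 2 comparisons are not independent. That group also had the lowest mean of the cortex markers (12.44, arrays from 12.24 to 12.60), and its highest array overlapped colonized insulin arrays (12.59 to 12.65). In the fit with these markers as covariate the Egr1 change was 1.44 ± 0.22 for insulin in colonized mice. For germ-free against colonized saline mice it was 1.34 ± 0.29, and neither was called. The markers were lowest in the same group as Egr1, so the parts of cortex content and group in its level cannot be told apart.

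Egr2, which Schwann cells need for myelination and which is also an immediate early gene, was higher after insulin in each state without passing the test. Germ-free insulin mice had 7.84, 7.97 and 7.83 against 7.45, 7.65 and 7.69 in germ-free saline mice. The colonized mice had 8.37, 8.09 and 7.93 after insulin against 7.66, 7.00 and 7.37 after saline. The insulin arrays lay above the saline arrays in both states. The change was 0.29 ± 0.16 in germ-free (limma adjusted p = 0.723) and 0.79 ± 0.16 in colonized mice (adjusted p = 0.101), and their difference of -0.50 ± 0.23 was not called either (adjusted p = 0.500). The colonized change was called with array weights (0.77, adjusted p = 0.0427) and without colonized saline animal 1 (0.94, adjusted p = 0.0440). The 7 measured Schwann and sustentacular markers, of 10 listed, averaged 7.08 to 7.24 in germ-free insulin against 6.75 to 6.86 in germ-free saline arrays, and 7.07 to 7.30 in colonized insulin against 7.18 to 8.35 in colonized saline arrays. They were thus higher after insulin, as Egr2 was, in germ-free mice, and had a lower mean after insulin in colonized mice. Only 2 of these 7 markers (Fabp7 and Pmp22) had a mean above 7.71, and the part of such cells in the Egr2 level was not tested.

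Egr3, an immediate early factor closely related to Egr1, was higher after insulin in every array of both states on each of its 3 probe sets. On the brightest probe set (TSUnmapped00000046.mm.2), the germ-free values were 8.25, 7.91 and 7.95 after insulin against 7.65, 7.43 and 7.52 after saline. Colonized mice gave 8.24, 7.87 and 7.74 after insulin against 7.45, 7.21 and 7.24 after saline. The groups did not overlap in either state. The change was 0.50 ± 0.15 in germ-free (limma adjusted p = 0.253) and 0.65 ± 0.15 in colonized mice (adjusted p = 0.129), and the difference between these changes was -0.15 ± 0.21 (95% interval -0.60 to 0.30). Neither insulin change was called.

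The other Egr3 probe sets gave the same direction with other sizes. TC1400000990.mm.2 read 5.78, 5.70 and 5.58 in germ-free insulin mice against 4.87, 4.81 and 4.86 in germ-free saline mice, a rise of 0.84 ± 0.14 that was called (limma adjusted p = 0.0174). In colonized mice it read 5.84, 5.34 and 5.39 after insulin against 5.11, 4.84 and 5.11 after saline, a change of 0.50 ± 0.14 (adjusted p = 0.216). On TSUnmapped00000048.mm.2 the changes were 0.28 ± 0.11 in germ-free and 0.21 ± 0.11 in colonized mice, neither called. The direction of the difference between states therefore depended on the probe set, at 0.34 and 0.07 on these 2 and -0.15 on the brightest. The called probe set is dim: it lay above the 95th percentile of the negative controls on 0 of 12 arrays.

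**Figure D2:**
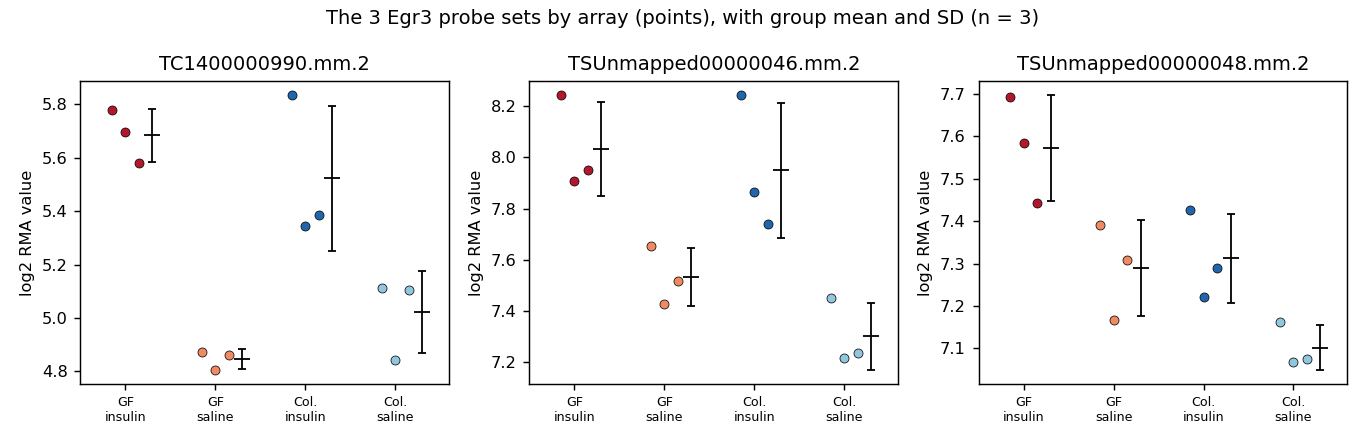
Log2 RMA value of the 3 Egr3 probe sets on each array (points) by group, with mean and SD (n = 3); the vertical scales differ and do not start at 0. On each probe set the insulin arrays lie above the saline arrays of the same colonization state, and TC1400000990.mm.2 shows the widest gap in germ-free mice (5.58 to 5.78 after insulin against 4.81 to 4.87 after saline).

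Egr4, the remaining EGR factor, showed no separation of groups. It read 6.91, 6.87 and 6.63 in germ-free insulin against 6.72, 6.73 and 6.95 in germ-free saline mice, and 7.09, 7.08 and 6.57 in colonized insulin against 6.62, 6.75 and 6.95 in colonized saline mice. Every pair of groups overlapped. The insulin change was 0.0034 ± 0.15 in germ-free mice (95% interval -0.33 to 0.34) and 0.14 ± 0.15 in colonized mice (95% interval -0.20 to 0.47).

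Arc, an effector that acts at synapses and regulates receptor endocytosis in neurons, differed by colonization state after saline. Its levels were 6.74, 6.57 and 6.91 in germ-free insulin, 6.40, 6.65 and 6.67 in germ-free saline, 6.32, 6.51 and 6.50 in colonized insulin and 6.18, 5.96 and 6.14 in colonized saline mice. Insulin arrays lay above saline arrays in colonized mice and overlapped them in germ-free mice. The insulin change was 0.17 ± 0.12 in germ-free (limma adjusted p = 0.827) and 0.35 ± 0.12 in colonized mice (adjusted p = 0.314), neither called.

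After saline Arc was 0.48 ± 0.12 higher in germ-free than in colonized mice (limma adjusted p = 0.0380), and after insulin 0.30 ± 0.12 higher (adjusted p = 0.174, not called). The mean of the negative controls was 0.60 higher in germ-free mice in each of these comparisons, and 85.2% of its rows were higher after saline and 86.6% after insulin. Arc lay below the 95th percentile of these rows on all 12 arrays, and the part of this shift in its change was not tested. The mean of 7 neuron markers ran the other way, at 7.37 to 7.43 in germ-free saline against 7.72 to 9.57 in colonized saline arrays. Only 2 of these 7 markers (Snap25 and Stmn2) had a mean above 7.71, and the part of such cells in the Arc level was not tested. The saline call was lost with a variance trend (adjusted p = 0.0514), with the compared groups alone (0.125), and with the adrenal cortex (0.449) or chromaffin covariate (0.0626). Leaving out colonized saline animal 1, 2 or 3, colonized insulin animal 5, germ-free saline animal 7, 8 or 9 or germ-free insulin animal 10 ended it as well (adjusted p from 0.0515 to 0.125).

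Npas4, a transcription factor of neurons that responds to calcium entry, lay below the mean of the negative controls throughout. It read 5.25, 4.93 and 5.22 in germ-free insulin mice against 4.76, 4.57 and 4.29 in germ-free saline mice. Colonized mice gave 4.81, 4.36 and 4.69 after insulin against 4.06, 4.06 and 4.23 after saline. Insulin arrays lay above saline arrays in both states, by 0.60 ± 0.15 in germ-free (limma adjusted p = 0.169) and 0.50 ± 0.15 in colonized mice (adjusted p = 0.248). Neither change was called, and the difference between them was 0.09 ± 0.22 (95% interval -0.37 to 0.56). Germ-free arrays were also above colonized arrays, by 0.51 after insulin (adjusted p = 0.0602) and 0.42 after saline (adjusted p = 0.118), beside the 0.60 by which the negative controls were higher. The insulin comparison between states was called with median centring (0.58, adjusted p = 0.0439) and without colonized saline animal 2 (0.51, adjusted p = 0.0416).

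Srf, the factor that binds CArG boxes upstream of many immediate early genes, varied little. It read 8.76, 8.68 and 8.82 in germ-free insulin against 8.53, 8.61 and 8.72 in germ-free saline mice, and 8.39, 8.59 and 8.86 in colonized insulin against 8.28, 8.58 and 8.34 in colonized saline mice. The groups overlapped in each of the 4 pairwise comparisons. Its insulin change was 0.13 ± 0.13 in germ-free (95% interval -0.15 to 0.42) and 0.22 ± 0.13 in colonized mice (95% interval -0.07 to 0.50), not called.

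**Figure D3:**
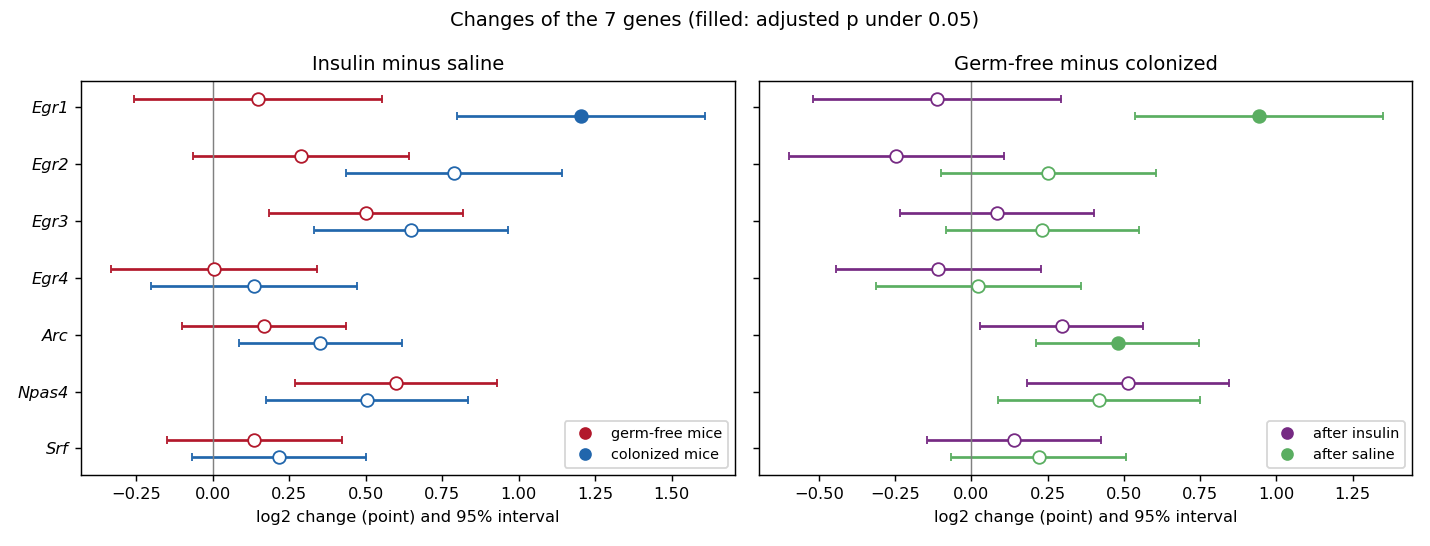
Log2 change (points) with 95% interval for each gene, insulin minus saline in germ-free and colonized mice at the left and germ-free minus colonized mice after insulin and after saline at the right; filled points had an adjusted p under 0.05. Egr1 for insulin in colonized mice, and Egr1 and Arc for germ-free against colonized mice after saline, are the filled points.

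Across the 7 genes, the insulin change was above 0 for 7 of 7 in germ-free mice with a median of 0.17, and for 7 of 7 in colonized mice with a median of 0.50. Over all genes these medians were 0.0063 and 0.0047. None of the 7 was called in germ-free mice, where 0.138% of all genes were called higher, and 2 had an unadjusted p under 0.05 (8.29% of all genes). In colonized mice 1 was called. Insulin and saline arrays did not overlap, with insulin higher, for 3 of the 7 in germ-free mice (9.56% of all genes) and for 5 in colonized mice (7.52%). For the difference of the insulin effects none was called (0.0359% of all genes were), 2 had an unadjusted p under 0.05 (9.95% of all genes), and 6 of 7 were below 0. Between germ-free and colonized mice after insulin none was called (2.6% of all genes were called higher), 2 had an unadjusted p under 0.05 (22.5% of all genes), and 2 did not overlap with germ-free arrays higher (12% of all genes). After saline 2 of the 7 were called higher in germ-free mice (2.79% of all genes), and 3 did not overlap with germ-free arrays higher (10.9%). The 7 were chosen with such values known, and the comparisons share arrays, so these counts describe the genes and are not evidence of a common response.

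Over the 12 arrays Egr3 correlated most with Egr2 (r = 0.82) and Npas4 (r = 0.81), and Egr1 with Egr3 (r = 0.75). After the group means were removed these were 0.48, 0.44 and 0.23. These correlations are descriptions over 4 groups of 3 arrays that share normalization. Among 6954 genes brighter than 7.71, the patterns most like that of Egr1 were those of Ssr4 (r = 0.94), Ptgs2 (0.90), Dph3 (0.89), Zfp36 (0.89) and Mc2r (0.89). Mc2r, the ACTH receptor of the adrenal cortex, averaged 12.15 in germ-free insulin, 12.16 in germ-free saline, 12.13 in colonized insulin and 11.76 in colonized saline mice, and so was also lowest in colonized saline arrays. Most like Egr2 were Ticam1 (r = 0.95), Dyrk1a (0.92) and R3hdm1 (0.90). Most like Egr3 were Fam107b (0.93), Tmcc3 (0.93) and Plk2 (0.91), and most like Npas4 were Noct, Sik1 and Ccrl2 (each 0.91). The closest to Arc were Isy1 (0.92), Ctps (0.91) and Ino80 (0.91), to Srf Tpm4 (0.87), Chst8 (0.86) and Nhp2 (0.83), and to Egr4 Coq4, Kmt5a and Camta2 (0.84, 0.84 and 0.83).

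Several other activity-regulated genes were also higher in germ-free than in colonized mice after saline. Of 31 measured genes of this list (32 listed), 12 were called higher (2.79% of all genes) and 0 lower (4.09%) in germ-free than in colonized saline mice, with a median change of 0.40 against -0.04 over all genes. They included Homer1 (1.38 ± 0.17), a synaptic scaffold, Sik1 (1.56 ± 0.27), a kinase that restrains CREB coactivators, Fosb (1.19 ± 0.17), an AP-1 factor, and the orphan nuclear receptor genes Nr4a1 (1.19 ± 0.21) and Nr4a2 (1.62 ± 0.36). The count of higher genes was 4 with the compared groups alone and 1 when cortex markers were a covariate, and it was 6 without colonized saline animal 1 or germ-free saline animal 7 and 5 without germ-free saline animal 8. With the adipocyte or chromaffin covariate, or without colonized saline animal 1, 1 was called lower. The list was chosen with earlier results of these data known, so its counts are not evidence of a common response. After insulin 7 of the 31 were called higher in germ-free mice (2.6% of all genes) and 0 lower (5.15%), among them Homer1 (1.02 ± 0.17), Gadd45b (1.13 ± 0.19) and Fosb (0.92 ± 0.17). With the adipocyte or chromaffin covariate 0 were higher, and without colonized insulin animal 5 or 6 the count was 3 or 4, and without germ-free insulin animal 11 or 12 it was 3 or 2. Lower without overlap were 3 of the 31 (3876 of all 19505 genes), Pcsk1 (-1.14 ± 0.32), Vgf (-0.95 ± 0.28) and Scg2 (-0.41 ± 0.13), against 12 higher (12%). The count called lower was 3 with array weights or without colonized saline animal 2. It was 2 with the cortex covariate, the compared groups alone, dim probe sets left out or colonized insulin animal 6 left out. With all rows, the variance trend or the adipocyte covariate, or without colonized saline animal 1, it was 1. Fos, the partner gene most often measured beside Egr1, differed by 0.14 after saline and -0.51 after insulin, neither called.

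Insulin raised 3 of these 31 genes in germ-free mice (0.138% of all genes were called higher) and 5 in colonized mice (0.108%), with medians of 0.56 and 0.63, and lowered none in either. Ptgs2 (2.73 ± 0.46), Tac1 (2.75 ± 0.41) and Fosb (0.99 ± 0.17) were the 3 in germ-free mice. The 5 in colonized mice were Ptgs2 (3.78 ± 0.46), Tac1 (2.43 ± 0.41), Nr4a2 (2.12 ± 0.36), Vgf (1.79 ± 0.28) and Fosb (1.26 ± 0.17). Both counts depended on single arrays. In germ-free mice the count ran from 0 to 8: it was 0 or 1 without germ-free insulin animal 10, 11 or 12 or germ-free saline animal 7 or 9, and 5 to 8 without colonized insulin animal 4 or 6 or colonized saline animal 2. In colonized mice it ran from 0 to 7: it was 7 without colonized insulin animal 6 or colonized saline animal 3, and 0 to 2 without any of the other 10 arrays. The counts were 12 in germ-free and 7 in colonized mice with array weights, and 14 and 0 with the compared groups alone (where 1 was called lower in germ-free mice). With the chromaffin covariate they were 0 in germ-free and 3 in colonized mice, with the adipocyte covariate 4 and 0, and when cortex markers were adjusted for 7 and 2. Beside Fosb, Egr1 changed by 0.15 ± 0.19 in germ-free and 1.20 ± 0.19 in colonized mice, and no test compared the genes. For the difference between states 0 of the 31 were called (0.0359% of all genes) and 2 had an unadjusted p under 0.05 (9.95%), with the widest values in Ptgs2 (-1.05 ± 0.65), Pcsk1 (-1.03 ± 0.46), Tiparp (0.78 ± 0.42) and Nr4a1 (-0.76 ± 0.30).

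**Figure D4:**
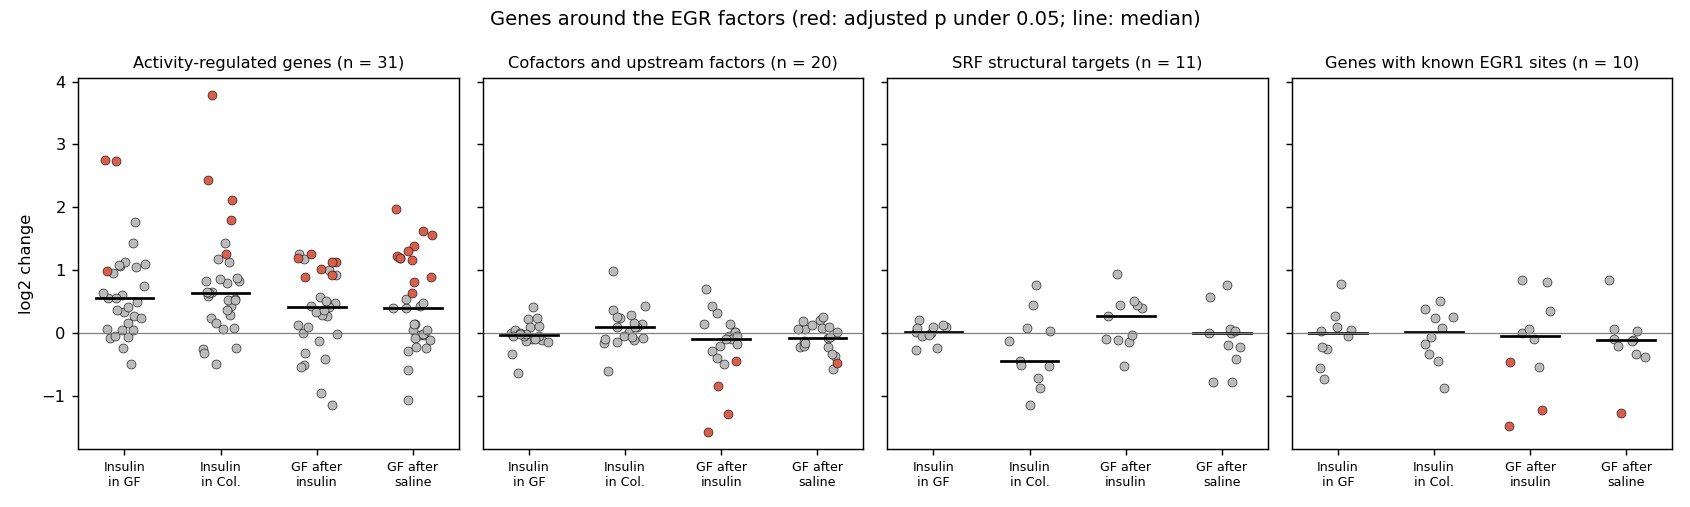
Log2 change of each measured gene (points) of 4 lists around the EGR factors in 4 comparisons: insulin against saline in germ-free (GF) and colonized (Col.) mice, and germ-free against colonized mice after insulin and after saline; red points had an adjusted p under 0.05 and lines are medians. Among activity-regulated genes 12 are red for germ-free against colonized mice after saline, all above 0 (2.79% of all genes were called higher), and the red points of the cofactor and EGR1 lists all lie below 0.

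Of the cofactors and upstream factors of EGR, SRF and NPAS4, none of the 20 was called for insulin in either state (medians -0.03 in germ-free and 0.09 in colonized mice) or for the difference, where 3, 2 and 3 had an unadjusted p under 0.05 (1617, 2294 and 1941 of all 19505 genes). With array weights 1 was called lower for insulin in germ-free mice and 1 for the difference. The compared groups alone also gave 1 called lower for insulin in germ-free mice. Nab2, a corepressor that binds EGR factors and is itself an EGR target, changed by -0.01 ± 0.34 in germ-free and 0.99 ± 0.34 in colonized mice after insulin. Its difference of -1.0 ± 0.49 was not called (limma adjusted p = 0.524). After insulin 4 of the 20 were lower in germ-free than in colonized mice and none higher, where 5.15% of all genes were called lower: Nab2 (-1.57 ± 0.34), Arnt2 (-1.29 ± 0.22), which encodes a partner of NPAS4, Crtc1 (-0.85 ± 0.12), a CREB coactivator, and Elk3 (-0.44 ± 0.12), an SRF partner. After saline Elk3 alone was called (-0.48 ± 0.12), where 4.09% of all genes were called lower. Chromaffin markers were lower in germ-free than in colonized mice after insulin too (9.71 to 10.22 against 10.74 to 11.26). With the chromaffin or adipocyte covariate 0 of the 20 were called after insulin, and without single arrays 2 to 6 were lower, with 2 without germ-free insulin animal 11 or 12 or colonized insulin animal 4. Genes called higher after insulin numbered 3 with array weights. They numbered 2 with the cortex covariate or without colonized saline animal 2 or colonized insulin animal 6. With all rows, dim probe sets left out, a second quantile normalization, median centring or the variance trend, 1 was higher. After saline the count of lower genes was 0 with the chromaffin covariate or with the compared groups alone. A second quantile normalization or median centring also gave 0, so the call of Elk3 was lost under either. Leaving out germ-free insulin animal 11, germ-free saline animal 7 or 8 or colonized saline animal 1 gave 0 too. The count was 3 without colonized saline animal 2 or when dim probe sets were dropped, and 4 under array weights. Dropping dim probe sets or weighting the arrays also gave 1 called higher.

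Among 10 measured genes with known EGR1 sites (11 listed), none was called for insulin in either state, with 5 of 10 above 0 in each and 2 in germ-free and 1 in colonized mice at an unadjusted p under 0.05 (1617 and 2294 of all 19505 genes). In germ-free mice array weights gave 1 called higher and 1 lower. The compared groups alone, or leaving out colonized saline animal 2, gave 1 called higher there. Ache, which encodes acetylcholinesterase, was lower in germ-free than in colonized mice after insulin (-1.48 ± 0.28) and after saline (-1.27 ± 0.28). Pnmt, which makes adrenaline, was lower after insulin (-1.22 ± 0.27) and near 0 after saline (0.03 ± 0.27), and Tgfb1 was lower after insulin (-0.47 ± 0.10). Of the 10, 3 were called lower after insulin (5.15% of all genes) and 1 after saline (4.09%). With the adipocyte or chromaffin covariate none of the 10 was called after insulin, and without germ-free insulin animal 11 or 12 or colonized insulin animal 4 only 1 was lower (2 without germ-free insulin animal 10 or colonized insulin animal 5). Th and Pnmt are on this list and among the chromaffin markers. Pnmt was thus adjusted for a mean that contains it, so the loss of its call there is partly built in. After saline none was lower with the cortex covariate, with the compared groups alone, or without germ-free saline animal 7, 8 or 9, and 2 were without colonized saline animal 3. Germ-free saline mice, in which Egr1 was 1.92-fold higher than in colonized saline mice, had Th at 0.07 ± 0.16 and Pnmt at 0.03 relative to them, neither called. Whether the Egr1 level bears on Th or Pnmt was not tested. Of 11 measured contractile and cytoskeletal SRF targets (12 listed), none was called in any comparison in the main fit, with 0 to 3 at an unadjusted p under 0.05 (1617 to 4687 of all 19505 genes). Between states after saline, 1 was called higher and 1 lower with dim probe sets left out, the adipocyte covariate or without colonized saline animal 3. With all rows, the variance trend, the chromaffin covariate or without colonized insulin animal 5 or 6, 1 was lower. With array weights or without colonized saline animal 2, 1 was higher. After insulin 1 was lower with the compared groups alone or without colonized saline animal 2. The median insulin change of these targets was 0.0094 in germ-free and -0.45 in colonized mice, with Acta2 at -1.15 ± 0.78 and Ccn2 at -0.88 ± 0.22 in colonized mice. Smooth muscle markers, 3 of whose 5 genes are on that list, averaged 6.83 to 8.13 in colonized insulin and 7.00 to 9.20 in colonized saline arrays, and their part was not tested. Of these 5 markers 2 had a mean above 7.71.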

How the data were processed

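Affymetrix arrays measured the adrenal medulla of 12 mice, 1 array each. The deposited values are log2 intensities made by the authors with RMA, which with limma is named in the submitters' processing notes; versions, build and whether all arrays were processed together are not given in the sources used here. Of 28846 rows, 19572 are paired with 1 gene symbol. Group means were fitted to the log2 values as deposited across the 12 arrays by limma (version 3.58.1, under R 4.3.3; eBayes, 8 residual and 4.08 prior degrees of freedom), and 5 contrasts were adjusted by Benjamini-Hochberg over 19572 probe sets and called under 0.05. All adjusted p values are limma's, and errors of changes are its standard errors. Shares of all genes use 19505 genes, 1 probe set each. P values set each change against the spread between animals within groups, pooled over all groups and moderated across probe sets. The number of arrays limits precision.

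The 7 genes, the 4 gene lists (75 genes, 72 measured) and the markers were chosen with earlier results of these data known. Named were the 7 genes, called list members, list members of large change, and the 5 (Egr1) or 3 genes closest in pattern by Pearson r. Homer1, Sik1, Nr4a1, Fosb and Gadd45b were picked from longer lists of called genes, and Fos after its values were seen. On simulated data for insulin in colonized mice over 19505 genes, 83 of 100 log2 changes of 1 and 96 of 100 of 2 were called, with 8 false calls. In the real data this comparison called 21 genes higher and 8 lower, and colonized saline arrays correlated at r = 0.954 to 0.988. How far the simulated shares hold for these arrays was not tested, so an uncalled gene is not shown to be unchanged.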

Additional observations from a re-analysis of the deposited data

How the results depend on the processing

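Results were recomputed with all rows, dim probe sets left out (means under 7.71, which drops Egr3, Egr4, Arc and Npas4), a second quantile normalization, 1 probe set per gene, median centring, variance trend, robust variances, array weights, the compared groups alone, 3 marker covariates, an adjusted p under 0.10 and each array left out. The other 2 probe sets of Egr3, and the recounts of the gene lists given beside their counts, were added after the data were seen. No paired analysis was possible because the animal numbers run from 1 to 12 and no group shares a number with another.

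For insulin in colonized mice 1 of the 7 genes was called. The count was 0 with all rows, the 3 covariates and the compared groups alone, 2 with array weights, and 0 to 1 without single arrays. For insulin in germ-free mice the count was 0, and 1 with Egr3 by TC1400000990.mm.2. For the difference it was 0, and 1 with array weights. For germ-free against colonized mice after saline it was 2; it was 1 without dim probe sets, with the trend and with the chromaffin covariate, 0 with the cortex covariate and the compared groups alone, and 0 to 2 without single arrays. After insulin it was 0, and 1 with median centring and at an adjusted p under 0.10, and 0 to 1 without single arrays.

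Changes that reversed sign were all uncalled. With the chromaffin covariate they were Srf for insulin in germ-free mice (-0.19), the differences of Egr2 (0.091), Egr3 (0.40) and Egr4 (0.29), and after insulin between states Egr2 (0.51), Egr4 (0.43) and Srf (-0.39). With the adipocyte covariate they were the difference of Egr3 (0.11) and, after insulin between states, Egr2 (0.30), Egr4 (0.013) and Srf (-0.17). The cortex covariate turned Egr2 after saline (-0.050) and Egr1 after insulin (0.0072) between states. Array weights turned Egr4 after saline (-0.065) and Egr3 after insulin (-0.030) between states. The other Egr3 probe sets turned its difference (0.34 and 0.073), and TC1400000990.mm.2 its saline comparison between states (-0.17). Without single arrays, Egr4 ran from -0.052 to 0.091 for insulin in germ-free mice and from -0.053 to 0.11 between states after saline. The differences of Npas4 ran from -0.035 to 0.20 and of Srf from -0.20 to 0.043, and between states after insulin Egr1 ran from -0.25 to 0.076 and Egr3 from -0.021 to 0.23. The cause of these changes was not tested. The median of all genes moved by under 0.1 with either scaling. Of the 7 genes 4 (Egr3, Egr4, Arc and Npas4) had a mean under 7.71 and so within the range of the negative controls. Egr2 lay barely above it at 7.74, and on every germ-free array it was within that range. This limits what the changes of all of these genes can show.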
